A study of Mus musculus with 2 samples.

Results

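The 10 genes described here are core parts and direct outputs of the circadian clock, found by symbol among the 27998 genes of the count tables. All 10 were present. They were followed in single-nucleus RNA-Seq (snRNA-Seq) of gastrocnemius-plantaris (GP) muscle, a mixed calf muscle, in 1 Ctrl and 1 cKO library. The Ctrl mice were Net39 fl/fl without Cre and the cKO mice were HSACreERT2;Net39 fl/fl, both on the B6C3F1 background, 5 months old and 3 months after tamoxifen. All mice therefore carried the floxed Net39 allele, and Cre was driven by a skeletal actin promoter that is active in muscle fibers but not in satellite cells. Per the labels each library held 3 GP muscles pooled by genotype, although each title names a single mouse, so how many animals gave them is not certain. No spread between animals is known.

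The clock is a feedback loop of transcription that runs in nearly every cell. ARNTL (BMAL1) pairs with CLOCK or NPAS2 and activates genes that carry E-box sequences, among them the Per genes, Nr1d1, Nr1d2, Dbp and Tef. The PER proteins, with CRY partners, inhibit this pair, and the nuclear receptors encoded by Nr1d1 and Nr1d2 repress Arntl through ROR elements. DBP and TEF are D-box-binding activators further down the loop. Arntl RNA is therefore high when Dbp and Nr1d1 RNA are low, and low when they are high. In skeletal muscle the clock is known for daily rhythms of fuel use and of growth-related genes.

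The DNA letters of this loop could be read in part from the promoters of the members. RefSeq promoters (GRCm38.p6), each running from 250 bases before to 50 bases after a transcript start, were found for 9 of the 10 members (Per2 had none), 14 promoters in all. The E-box CACGTG, searched on both strands, was in the promoters of Per1 and Tef and in 7.15% of all 32851 promoters. The ROR element core, TAGGTCA or TGGGTCA on either strand, was in that of Arntl and in 6.45% of all. The D-box TTANGTAA was in that of Per3 and in 2.32% of all. None of these sites overlapped a site of another motif. The windows below are shown because each holds a motif of the loop in the promoter of a member whose level is described next. Capitals mark the motif, and each window is on the strand of its gene.
Per1, E-box 166 bases before the first of 2 RefSeq starts, chr11:69098756-69098815: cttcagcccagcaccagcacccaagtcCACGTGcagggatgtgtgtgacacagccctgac
Tef, E-box 127 bases before the first start, chr15:81802519-81802578: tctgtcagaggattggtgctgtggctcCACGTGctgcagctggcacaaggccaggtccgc
Tef, E-box 138 bases before the second start, chr15:81811249-81811308: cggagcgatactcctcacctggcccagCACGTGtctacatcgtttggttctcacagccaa
Arntl, ROR element core 30 bases after the second of 2 starts, chr7:113207530-113207559: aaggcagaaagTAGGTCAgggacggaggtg
Per3, D-boxes 205 and 158 bases before the start, chr4:151044806-151044880, minus strand: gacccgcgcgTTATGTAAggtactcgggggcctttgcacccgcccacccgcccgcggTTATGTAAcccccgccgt
The other promoter of Per1 and that of Arntl held none of these motifs, and both RefSeq starts of Per1 lie inside its annotated gene on GRCm38. A match is a description of these letters and was not tested as a binding site.

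The deposited tables held 3863 Ctrl barcodes with 10410316 unique molecular identifiers (UMIs, each a counted RNA molecule) and 3994 cKO barcodes with 8446070. After filters, 3526 Ctrl and 3595 cKO nuclei were used, with a median of 2040.5 and 1611 UMIs. Of these, 2988 Ctrl and 3291 cKO nuclei were in clusters of myonuclei, the nuclei of the fibers, and 538 and 304 were in clusters outside the fibers. Malat1, a nuclear RNA, took 25.6% of Ctrl and 30.7% of cKO UMIs. Only 5 barcodes occurred in both libraries. Plpp7, the gene of Net39, had 406 Ctrl and 281 cKO UMIs in myonuclei, 51.6 and 41.7 CPM, a log2 ratio of -0.31 (-0.53 to -0.09). Its deletion removes exon 1 only, and counts from the 3' end do not check it. The paper reports reduced Net39 mRNA in cKO GP muscle by bulk RNA-Seq and loss of the protein in quadriceps by Western blot. Because each group is 1 library, there is no test and no p-value. Every 95% interval below covers counting error only. The sources used here give no hour at which the muscles were taken, so hour of collection and genotype cannot be told apart.

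In myonuclei, the RNAs of the Arntl side were lower in cKO and 4 of the 7 on the Dbp side were higher. Gene positions are those of GRCm38, the build named mm10. Arntl (ENSMUSG00000055116, chr7:113207465-113314126), the activator at the center of the loop, had 2359 UMIs in Ctrl and 1263 in cKO. In CPM (UMIs scaled to the same total in each class and library), its level was 300.0 in the Ctrl library against 187 for cKO, and the log2 ratio of cKO over Ctrl was -0.68 (-0.78 to -0.58). Clock (ENSMUSG00000029238, chr5:76209868-76304792), its usual partner, was at 162 CPM and 139.7 CPM, a log2 ratio of -0.21 (-0.33 to -0.09). Npas2 (ENSMUSG00000026077, chr1:39193731-39363236), the alternative partner, was at 39.2 CPM and 31.7 CPM, a log2 ratio of -0.30 (-0.56 to -0.05). All 3 intervals lay below 0, as did those of 23.9% of the 9273 genes with at least 50 UMIs over both libraries. With Malat1 and mitochondrial UMIs left out of the total, the log2 ratios were -0.58 (-0.68 to -0.48) for Arntl, -0.11 (-0.24 to 0.0083) for Clock and -0.21 (-0.46 to 0.050) for Npas2, so of the 3 intervals that of Arntl alone stayed below 0. Markers of FAPs, in which Npas2 was most abundant, moved with Npas2. The 9 markers, none at 0, summed to 82.7 CPM in Ctrl and 40.2 CPM in cKO myonuclei, against 4136 and 2917 CPM outside the fibers, and their part in the Npas2 value was not tested. The median log2 ratio of those genes was -0.08, so Clock differed from that median by little.

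The repressors of Arntl went the other way. Nr1d2 (ENSMUSG00000021775, chr14:18204054-18239127), which encodes REV-ERB beta, had 1314 Ctrl and 1391 cKO UMIs, 167 CPM and 206 CPM, a log2 ratio of 0.30 (0.19 to 0.41). Nr1d1 (ENSMUSG00000020889, chr11:98767932-98775333), which encodes REV-ERB alpha, had 114 and 138 UMIs, 14.5 CPM and 20.5 CPM, a log2 ratio of 0.50 (0.13 to 0.87). Nr1d1 overlaps Thra on the opposite strand by 1075 bases. Thra went in the other direction, with 303 Ctrl and 217 cKO UMIs in myonuclei and a log2 ratio of -0.26 (-0.52 to -0.00).

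The 2 D-box activators were both higher in cKO. Dbp (ENSMUSG00000059824, chr7:45705088-45710203) had 15 UMIs in the 2988 Ctrl myonuclei and 85 in the 3291 cKO myonuclei. Its levels were thus 1.91 and 12.6 CPM, and the log2 ratio of 2.72 (1.92 to 3.62) was the largest difference of any member. Dbp overlaps Sphk2 on the opposite strand by 737 bases, and Sphk2 had 17 Ctrl and 24 cKO UMIs in all nuclei. Tef (ENSMUSG00000022389, chr15:81802421-81826863), with 793 and 862 UMIs, was at 101 CPM and 128 CPM, a log2 ratio of 0.34 (0.20 to 0.48). The intervals of Nr1d1, Nr1d2, Dbp and Tef lay above 0, as did those of 15.2% of all genes.

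The Per genes, the inhibitory arm, did not share the direction of the other Dbp-side members. Per1 (ENSMUSG00000020893, chr11:69095217-69109960) had 215 Ctrl and 150 cKO UMIs, 27.3 CPM and 22.2 CPM, a log2 ratio of -0.30 (-0.61 to 0.01). Per2 (ENSMUSG00000055866, chr1:91415982-91459324) had 80 and 44 UMIs, 10.2 CPM and 6.53 CPM, a log2 ratio of -0.64 (-1.21 to -0.09), or -0.54 (-1.11 to 0.0048) without Malat1 and mitochondrial UMIs in the total. Per3 (ENSMUSG00000028957, chr4:151003652-151044665) had 21 and 6 UMIs, under the minimum of 50, and a log2 ratio of -1.59 (-3.18 to -0.23). Per3 lies wholly within Camta1 on the same strand, so reads of the longer gene's introns share its 41014 bases.

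Past a 1.5-fold difference, 1 of the 9 members with at least 50 UMIs was higher in cKO (Dbp) and 2 were lower (Arntl and Per2). Among all 9273 genes, 7.43% were higher and 10.5% lower by that fold (689 and 971 genes). Without Malat1 and mitochondrial UMIs in the total, 880 genes were higher and 744 lower (9.49% and 8.02%). Of the 9 members, 2 were then past the fold higher, Dbp and Nr1d1 (0.59), and 0 lower, since Arntl (-0.58) and Per2 (-0.54) were just short of it. In the plot of member levels, the counts behind each value show which members rest on few molecules.

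**Figure D1:**
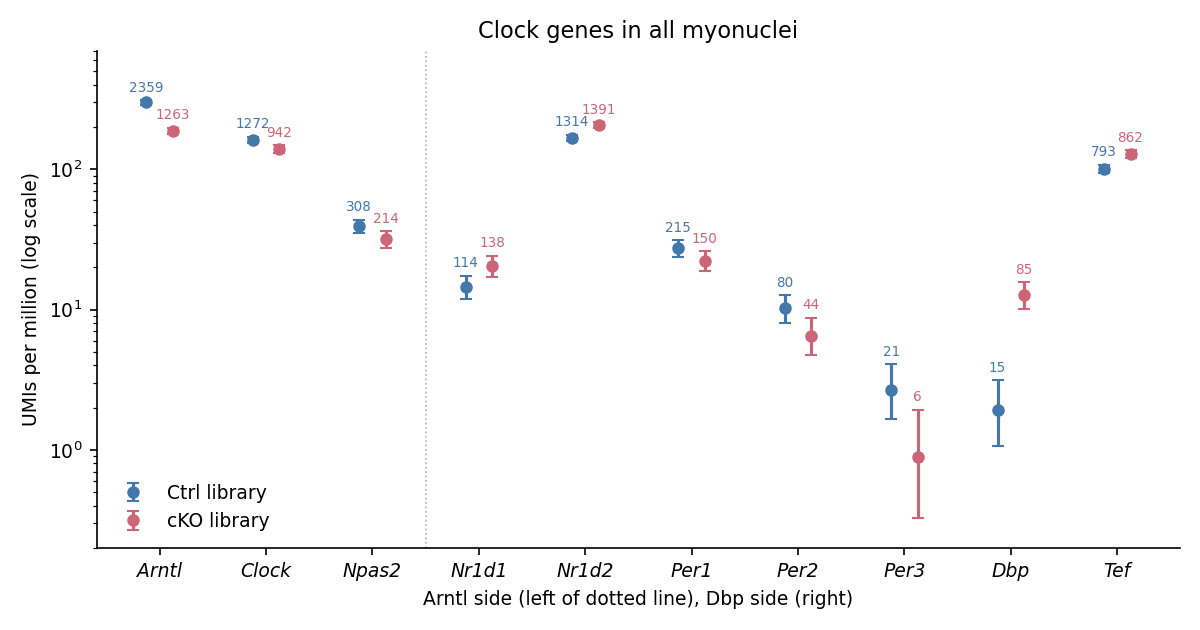
Levels of the 10 clock genes in all myonuclei of the Ctrl and cKO libraries, in CPM on a log axis. Points are CPM of summed UMIs, bars are exact 95% Poisson intervals, and the number above each point is its UMI count. Arntl sits higher in Ctrl (2359 against 1263 UMIs) and Dbp higher in cKO (85 against 15 UMIs).

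To read the members as a phase, the UMIs of the Dbp side (Dbp, Tef, Per1, Per2, Per3, Nr1d1 and Nr1d2) were divided by those of the Arntl side (Arntl, Clock and Npas2). This phase ratio depends on how well each RNA is captured, so it gives no hour, but it can be compared between libraries. Between classes it also carries levels of single members that differ by class, as those of Npas2 and Tef do below. A difference in ratio between classes is therefore not read as one of phase. In myonuclei the phase ratio was 2552 over 3939 UMIs in Ctrl, 0.648 (0.616 to 0.681), and 2676 over 2419 UMIs in cKO, 1.106 (1.047 to 1.169). The cKO ratio was 1.71-fold higher (1.58 to 1.84), a log2 difference of 0.77 (0.66 to 0.88). Dbp over Arntl alone gave a log2 difference of 3.40 (2.59 to 4.31). The 3 Per genes over the Arntl side were nearly the same in both libraries, 0.0802 in Ctrl and 0.0827 in cKO, a log2 difference of 0.04 (-0.23 to 0.31). Within myonuclei, the difference in phase ratio was thus not carried by the Per genes, and without them it was 0.85 (0.74 to 0.96). Because UMIs are summed, the ratio rests mostly on Arntl, Clock, Nr1d2 and Tef. Dbp (15 and 85 UMIs) and Nr1d1 (114 and 138) weigh little in it, and the part of each member was not tested.

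Myonuclei were then split by the myosin heavy chain gene that held at least 60% of their UMIs of Myh7, Myh2, Myh1 and Myh4, the markers of type I, IIa, IIx and IIb fibers. The classes differed in size between the libraries. Myh7-dominant nuclei numbered 19 in Ctrl and 275 in cKO, Myh2-dominant 166 and 325, and Myh1-dominant 302 and 380. Myh4-dominant nuclei numbered 1911 and 1425, and 590 and 886 were undetermined. The phase ratio was higher in cKO in all 5 classes, and the interval of the difference lay above 0 in 4 of them, so the higher ratio of all myonuclei was also seen within classes of nuclei.

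The log2 difference in phase ratio was 1.02 (0.87 to 1.16) in Myh4-dominant nuclei, where the ratio was 0.674 in Ctrl and 1.362 in cKO. It was 0.74 (0.40 to 1.08) in Myh1-dominant nuclei, with ratios of 0.655 and 1.095. In Myh2-dominant nuclei it was 0.52 (0.08 to 0.97), with ratios of 0.474 and 0.680. In undetermined nuclei it was 0.66 (0.41 to 0.92), with ratios of 0.592 and 0.936. The 19 Ctrl nuclei of the Myh7-dominant class gave 23 UMIs of the members, and the difference there, 0.56 (-0.79 to 1.98), could not be told from 0 at this depth. Whether the classes differ in this difference was not tested.

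**Figure D2:**
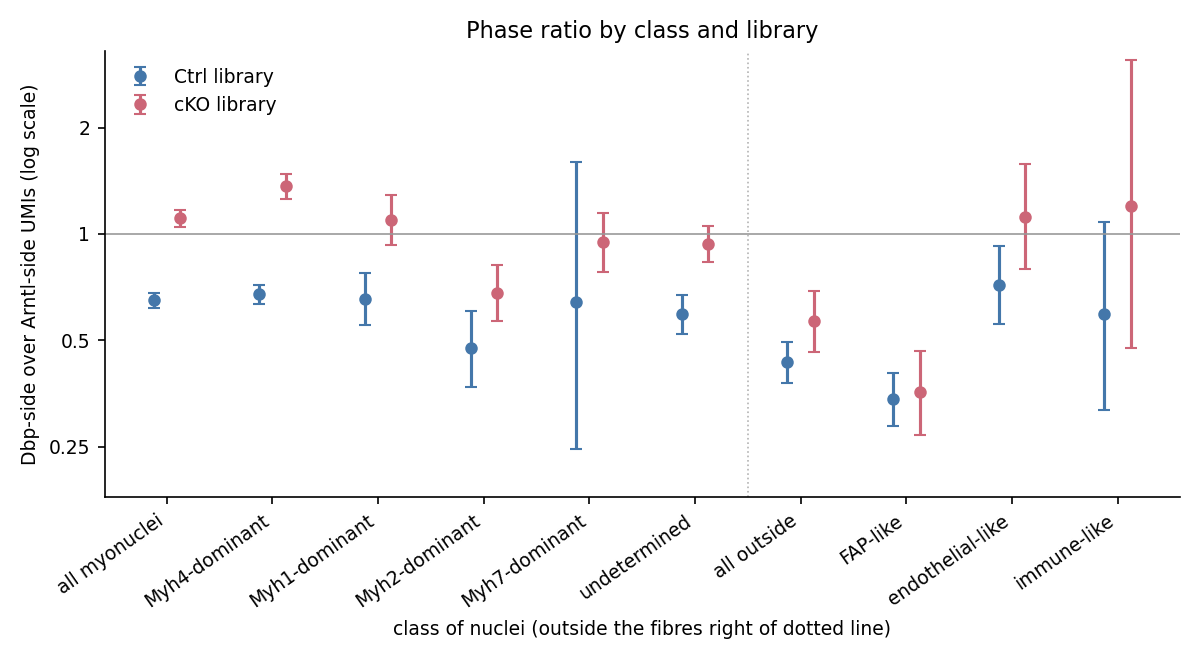
Phase ratio, the Dbp-side UMIs over the Arntl-side UMIs, by class of nuclei and library on a log axis. Points are ratios of summed UMIs and bars are exact 95% binomial intervals. The cKO points lie above the Ctrl points in every fiber class, from 0.680 against 0.474 (Myh2-dominant) to 1.362 against 0.674 (Myh4-dominant), while the FAP-like points nearly coincide at 0.341 and 0.356.

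Within each library the fiber classes also stood at different ratios. In Ctrl, the Myh2-dominant ratio was the lowest, and the Myh4-dominant ratio was 1.42-fold that of Myh2-dominant nuclei (1.11 to 1.84). The Myh1-dominant ratio in Ctrl was 1.38-fold that of Myh2-dominant nuclei (1.03 to 1.87), and Myh4- and Myh1-dominant nuclei differed by 1.03-fold (0.860 to 1.231), within counting error. In cKO the order from high to low was Myh4, Myh1, Myh7 and Myh2. The Myh4-dominant ratio there was 2.00-fold that of Myh2-dominant nuclei (1.64 to 2.45), 1.44-fold that of Myh7-dominant nuclei (1.17 to 1.78) and 1.24-fold that of Myh1-dominant nuclei (1.04 to 1.49). The Myh1- and Myh7-dominant neighbors differed within counting error, 1.16-fold (0.898 to 1.492). Whether these class differences are of phase or of single members was not tested.

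Nr1d1 was higher in cKO in 2 fiber classes and lower in 2, with 1 interval above 0 and none below. In Myh4-dominant nuclei it had 76 Ctrl and 86 cKO UMIs, 14.1 CPM and 29.3 CPM, a log2 ratio of 1.05 (0.59 to 1.52). In Myh1-dominant nuclei it had 19 and 17 UMIs, 23.9 CPM and 19.2 CPM, -0.31 (-1.34 to 0.71), and in Myh2-dominant nuclei only 4 and 2 UMIs. In cKO, Nr1d1 was lower in Myh2- than in Myh4-dominant nuclei by a log2 ratio of -3.33 (-6.39 to -1.43), while Myh1-dominant (-0.61, -1.45 to 0.15) and Myh7-dominant nuclei (-0.84, -1.95 to 0.11) lay within counting error of the Myh4-dominant level. Dbp had 9 Ctrl and 51 cKO UMIs in Myh4-dominant nuclei, 1.67 CPM and 17.4 CPM, a log2 ratio of 3.38 (2.34 to 4.59). Against the Myh4-dominant level of Dbp in cKO, the intervals of the Myh1-, Myh2- and Myh7-dominant classes all held 0.

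In the other fiber classes Dbp was sparse. It had 1 Ctrl and 7 cKO UMIs in Myh1-dominant nuclei, 2 and 5 in Myh2-dominant (where the direction depended on the processing), 0 and 6 in Myh7-dominant, and 3 and 16 in undetermined nuclei. Its order across cKO classes, from 17.4 CPM (Myh4) through 9.83 (Myh7), 9.82 (undetermined) and 7.92 (Myh1) to 7.31 CPM (Myh2), held no pair of neighbors that differed beyond counting error. Nr1d2 in cKO ran from 250.5 CPM in Myh4-dominant nuclei to 205 in Myh1-, 177 in Myh2- and 146 in Myh7-dominant nuclei, and the first step exceeded counting error, a log2 ratio of 0.29 (0.05 to 0.53).

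Arntl was lower in cKO in all 5 fiber classes, with log2 ratios from -0.85 in undetermined to -0.12 in Myh7-dominant nuclei and intervals below 0 in 3, but without Malat1 and mitochondrial UMIs in the total the Myh7-dominant value turned to 0.098, with an interval that held 0. The Myh1-dominant interval then also reached 0, at -0.31 (-0.62 to 0.00057). That scaling moved the log2 ratios by 0.040 in Myh4-dominant to 0.219 in Myh7-dominant nuclei, and it does not enter the phase ratio. In Ctrl it was 311 CPM in Myh4-, 263 in Myh2-, 239.8 in Myh1- and 173 in Myh7-dominant nuclei. In cKO it was 198 CPM in Myh4-, 219 in Myh2-, 179 in Myh1- and 159 in Myh7-dominant nuclei. In Ctrl, Arntl was lower in Myh1- than in Myh4-dominant nuclei by a log2 ratio of -0.37 (-0.60 to -0.16), while in cKO that ratio was -0.15 (-0.41 to 0.11). Myh7- against Myh4-dominant nuclei gave -0.31 (-0.64 to -0.0017) in cKO and -0.85 (-2.16 to 0.20) in Ctrl. No neighboring pair in the order of Arntl over all classes differed beyond counting error in either library.

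Npas2 and Tef differed between Myh2- and Myh4-dominant nuclei in both libraries, in opposite directions. Npas2 was 75.6 CPM in Myh2- and 31.6 in Myh4-dominant nuclei of Ctrl, a log2 ratio of 1.26 (0.66 to 1.82), and 51.2 and 22.2 CPM in cKO, 1.21 (0.57 to 1.82). Tef was 70.7 CPM in Myh2- and 109 in Myh4-dominant nuclei of Ctrl, a log2 ratio of -0.62 (-1.21 to -0.08), and 89.2 and 154 CPM in cKO, -0.79 (-1.20 to -0.40). Tef in the Myh7-dominant nuclei of cKO, 133 CPM, lay within counting error of the Myh4-dominant level, -0.21 (-0.57 to 0.13). Clock was at 176 and 161 CPM in Myh2- and Myh4-dominant nuclei of Ctrl, 0.13 (-0.24 to 0.47), and at 172 and 132 CPM in cKO, 0.38 (0.07 to 0.68).

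**Figure D3:**
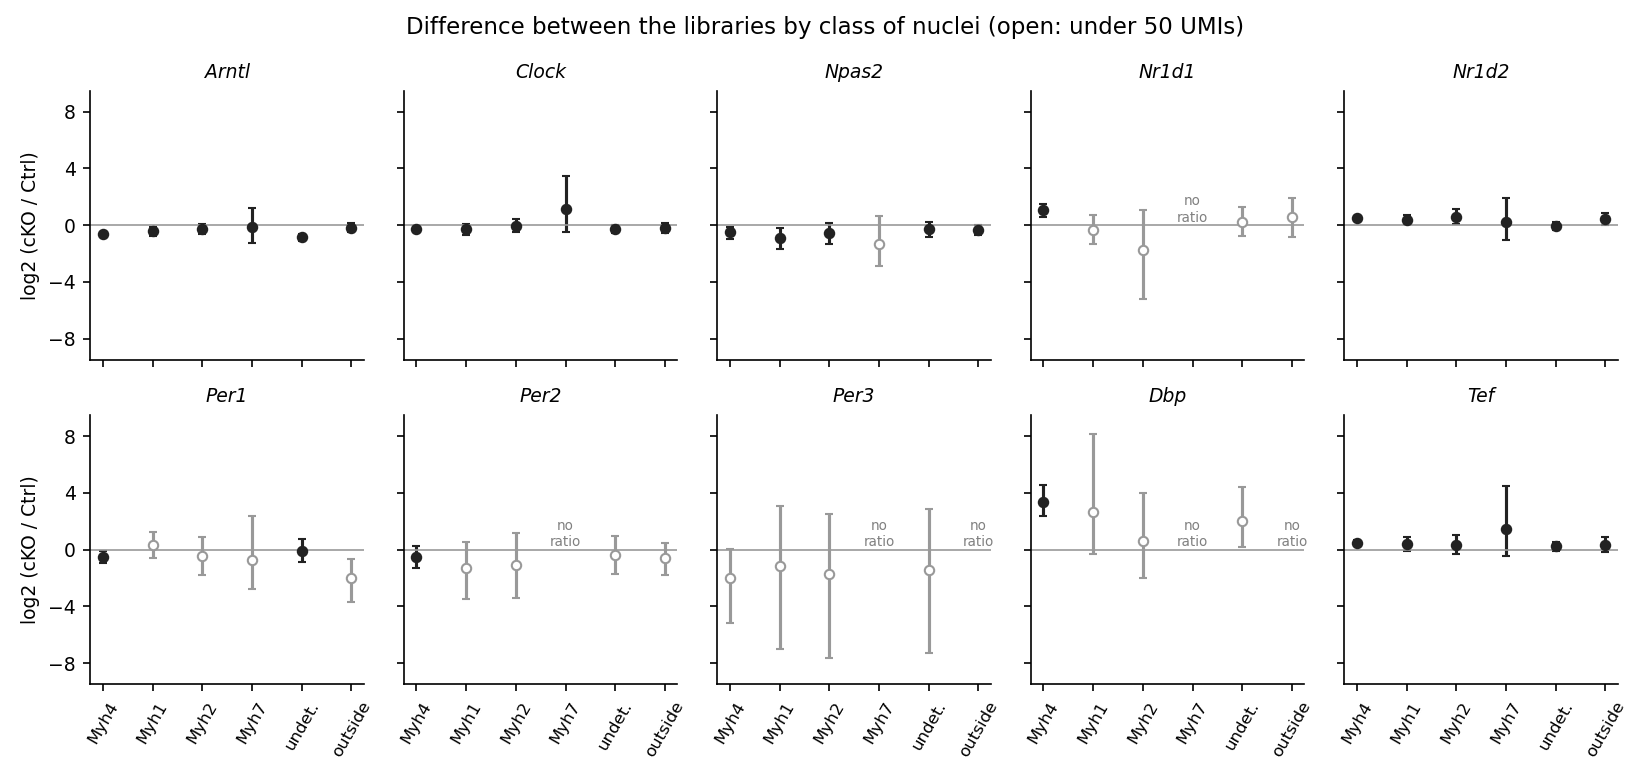
log2 ratio of cKO over Ctrl CPM of each clock gene in 5 classes of myonuclei and in nuclei outside the fibers. Points are ratios of summed UMIs, bars are exact conditional 95% intervals, open gray points have fewer than 50 UMIs over both libraries, and no ratio is drawn where a library has 0 UMIs. Arntl lies below 0 in all 5 fiber classes (above 0, at 0.098, in Myh7-dominant nuclei when Malat1 and mitochondrial UMIs leave the total), and Dbp lies above 0 in the 4 fiber classes where a ratio exists (below 0, at -0.71, in Myh2-dominant nuclei by the mean of each nucleus's CPM and at -0.078 with 80% dominance).

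Graph-based clusters, made without the clock genes, gave the same picture with 1 exception. The phase ratio was higher in cKO in all 8 myonuclear clusters, and the interval of the difference lay above 0 in 7, from 0.69 to 1.19 on the log2 scale. The exception was cluster 3, led by Myh2 and Bdh1, with 265 Ctrl and 365 cKO nuclei. Its ratio was 0.592 in Ctrl and 0.630 in cKO, a log2 difference of 0.09 (-0.28 to 0.46). In that cluster Arntl had 183 Ctrl and 171 cKO UMIs, a log2 ratio of -0.06 (-0.37 to 0.25), and Dbp had 2 and 2. The specialized nuclei of the neuromuscular junction (NMJ-like, 35 Ctrl and 38 cKO nuclei) gave 1.09 (0.03 to 2.16), and those of the myotendinous junction (MTJ-like, 104 and 87) gave 0.69 (0.08 to 1.30).

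Outside the fibers, where HSA-CreERT2 is not known to act, the phase ratio was 307 over 709 UMIs in Ctrl, 0.433 (0.377 to 0.496), and 160 over 282 UMIs in cKO, 0.567 (0.464 to 0.691). The log2 difference was 0.39 (0.04 to 0.74). Without the Per genes, a choice made after seeing the data, it was 0.67 (0.30 to 1.04). The Per genes over the Arntl side differed by -1.05 (-1.98 to -0.21). Fiber RNA was also counted in nuclei outside the fibers, and its source was not tested. The UMIs of 12 fiber genes stood there at 46.9% of their summed myonuclear level in Ctrl and 50.7% in cKO. When that share of each member's myonuclear level was taken off, the log2 difference was -0.004, so a difference outside the fibers and the fiber RNA counted there cannot be told apart.

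The FAP-like nuclei, connective tissue progenitors that expressed 9 of 9 FAP markers but also 5 of 7 satellite cell and 5 of 7 adipocyte markers, showed the members with the least fiber RNA. Their fiber genes stood at 39.5% of the myonuclear level in Ctrl and 36.7% in cKO. The phase ratio there was 0.341 (0.286 to 0.405) in 343 Ctrl nuclei and 0.356 (0.269 to 0.467) in 163 cKO nuclei, a log2 difference of 0.06 (-0.42 to 0.53). The interval of the phase difference in all myonuclei starts higher, at 0.66, but the gap between FAP-like nuclei and myonuclei was not tested. For Arntl, 266 and 272 CPM gave a log2 ratio of 0.03 (-0.38 to 0.43). The endothelial-like nuclei (165 Ctrl and 125 cKO), which also expressed 6 of 8 smooth muscle and pericyte markers, gave 0.717 and 1.119, a log2 difference of 0.64 (0.02 to 1.27). Their fiber genes stood at 61.2% and 72.1% of the myonuclear level. The 30 Ctrl and 16 cKO immune-like nuclei gave 1.02 (-0.62 to 2.66).

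Npas2 and Per2 were the members most abundant outside the fibers relative to myonuclei. Npas2 had 239 Ctrl and 89 cKO UMIs there, 224 CPM and 179.7 CPM, 572% and 566% of its myonuclear level. Most of these UMIs were in FAP-like nuclei, with 207 and 77 UMIs, 303 CPM and 279 CPM. In Ctrl, FAP-like nuclei exceeded the next class, Myh7-dominant nuclei, by a log2 ratio of 1.61 (0.24 to 3.50), and in cKO the next class, endothelial-like nuclei, by 2.17 (1.28 to 3.18). Per2, with 33 and 10 UMIs outside the fibers, was at 304% and 309% of its myonuclear level. Both lie above the range of single fiber genes, 43.0% to 61.3% in Ctrl and 40.8% to 67.3% in cKO.

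Of the 5 members with at least 50 UMIs outside the fibers, none was past 1.5-fold in either direction, where 5.77% of 4786 genes were higher and 13.3% lower. Per1 there had 43 Ctrl and 5 cKO UMIs, 40.3 CPM and 10.1 CPM, a ratio of cKO over Ctrl of 0.251 (0.0775 to 0.631). The 24 and 2 Per1 UMIs of FAP-like nuclei gave -2.28 (-5.40 to -0.27) on the log2 scale. In endothelial-like (14 and 2 UMIs, -2.10, -5.28 to 0.020) and immune-like nuclei (5 and 1 UMIs, -0.93, -6.49 to 2.23) the intervals held 0. In cKO, Per1 outside the fibers was at 45.4% of its myonuclear level, inside the range of the fiber genes, so it cannot be told from fiber RNA there, and in Ctrl it was at 147%. Dbp was not detected in Ctrl outside the fibers, with 0 of 1067436 UMIs and an exact Poisson upper limit of 3.46 CPM, and had 4 UMIs in cKO, 8.07 CPM (2.20 to 20.7).

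**Figure D4:**
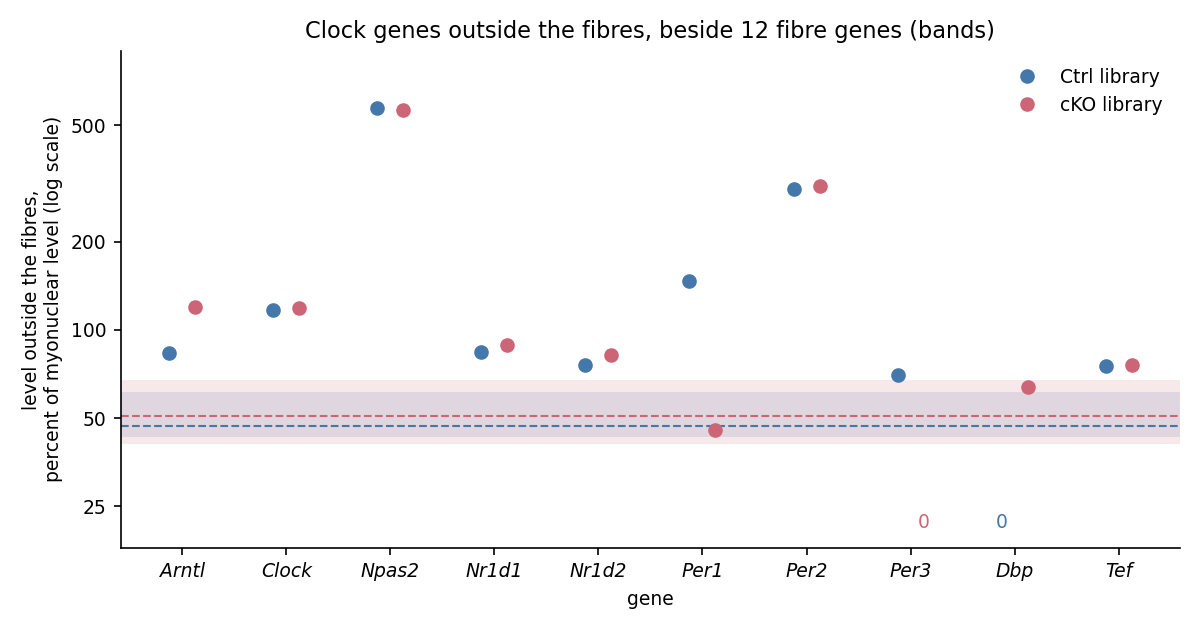
Level of each clock gene in nuclei outside the fibers as a percent of its level in myonuclei of the same library, on a log axis. Dashed lines are 12 fiber genes summed (46.9% in Ctrl, 50.7% in cKO), bands run from the lowest to the highest of these genes, and 0 marks no UMI. Npas2 (572% and 566%) and Per2 (304% and 309%) stand far above the bands in both libraries.

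Single nuclei gave too few molecules for a phase of each nucleus. After thinning to 1000 UMIs, 26.4% of Ctrl (24.9% to 28.1%) and 16.3% of cKO myonuclei (15.0% to 17.7%) had an Arntl UMI, against 18.9% and 19.2% of nuclei outside the fibers. Shallower nuclei were left out, 46 Ctrl and 448 cKO myonuclei and 205 and 111 nuclei outside. Thinned to 500 UMIs, which left out none, 14.3% of Ctrl and 9.21% of cKO myonuclei had one. Without thinning, the shares of myonuclei were 49.1% and 29.3%. Dbp was found in 11 of 2942 thinned Ctrl myonuclei, 0.374% (0.187% to 0.668%), and in 33 of 2843 of cKO, 1.16%, above the Ctrl interval, with at most 2 UMIs in a nucleus. It was in none of 333 Ctrl and 193 cKO nuclei outside the fibers, where exact binomial intervals reach 1.10% and 1.89%. The variance over mean of Arntl counts was 1.02 in Ctrl and 1.08 in cKO myonuclei, close to the 1 of random sampling, which thinning itself brings nearer, and 1.48 and 1.25 without thinning, where nuclei differ in depth. Among Ctrl myonuclei, those with an Arntl-side UMI had 307 Dbp-side UMIs per 1000 nuclei (276 to 341) and those without had 342 (316 to 370). In cKO these values were 398 (356 to 443) and 427 (399 to 457). Within each library these intervals overlap. Thinned to 500 UMIs, the values with and without an Arntl-side UMI were 163.8 and 163.6 in Ctrl. In cKO they were 222 (184 to 266) and 196 (179 to 213), so the order turned there, with intervals that overlap. Without thinning, nuclei with an Arntl-side UMI had more Dbp-side UMIs, 949 against 673 per 1000 nuclei in Ctrl and 954 against 691 in cKO, but deeper nuclei have more UMIs of both sides, so depth and the members cannot be told apart there.

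The other genes of the loop were read from a list of 16, of which 13 had at least 50 UMIs in myonuclei. Of these 13, 1 was past 1.5-fold higher in cKO and 1 lower, beside 7.43% and 10.5% of all genes. Without Malat1 and mitochondrial UMIs in the total, 2 were higher and 1 lower. The intervals of 2 lay above 0 and of 4 below, and 10 of the 13 values were below 0. The higher gene was Cry2, a partner of the PER proteins, with 142 Ctrl and 188 cKO UMIs (18.1 and 27.9 CPM) and a log2 ratio of 0.63 (0.30 to 0.95). The median over the 13 was -0.17, beside -0.08 over all genes.

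Among 11 genes known as clock outputs in muscle, 10 reached 50 UMIs, none was past the fold higher and 5 were lower, beside 7.43% and 10.5% of all genes. These were Pdk4, which restrains entry of pyruvate into mitochondria (638 CPM in Ctrl, 140.2 in cKO, log2 ratio -2.19), Ucp3, a mitochondrial carrier (239.6 and 60.4 CPM, -1.99), Myod1, a myogenic factor (9.79 and 3.56 CPM, -1.46), Cdkn1a, a cell-cycle inhibitor (66 and 31 UMIs, -0.87), and Lpin1, an enzyme of lipid synthesis (298 and 196 CPM, -0.60). Pdk4 and Ucp3 are also known to be induced by fasting. The gene of the list with the highest ratio, named after its values were seen, was Usp2, a deubiquitinase, at 121 and 179 CPM, 0.56 (0.44 to 0.69). The median over the 10 was -0.41. Without Malat1 and mitochondrial UMIs in the total, the counts were 1 higher (Usp2) and 4 lower, Lpin1 no longer among them. Outside the fibers 7 of the list reached 50 UMIs, with a median of 0.25. There 1 was past the fold higher and 2 lower, beside 5.77% and 13.3% of all genes.

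Glucocorticoids reset the clock in peripheral tissue and induce Per1 and Per2, so 7 of their known target genes were set beside the members. All 5 with enough UMIs had intervals below 0 in myonuclei, beside 23.9% of all genes, and 3 were past the fold lower, beside 10.5%, a count that the scaling without Malat1 and mitochondrial UMIs did not change. This list, like the others, was chosen with earlier results of these data known, so its counts beside all genes are a description only. Fkbp5, a cochaperone of the glucocorticoid receptor, had 3993 Ctrl and 130 cKO UMIs (508 and 19.3 CPM), with a log2 ratio of -4.72 (-4.98 to -4.47). Zbtb16 was at 2866 and 1059 CPM, -1.44 (-1.47 to -1.40), and Sgk1 at 178 and 73.6 CPM, -1.28 (-1.43 to -1.13). Outside the fibers the same 3 were past the fold lower, beside 13.3% of all genes, with Fkbp5 at 823 and 194 CPM, -2.09 (-2.41 to -1.78). Per2 in myonuclei and Per1 outside the fibers were lower in the same library as these genes, whose part in those differences was not tested.

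Temperature also sets the phase of peripheral clocks. Of 6 genes that respond to temperature, 5 reached 50 UMIs in myonuclei, 2 were past the fold higher in cKO and none was lower, beside 7.43% and 10.5% of all genes. The list mixed the cold-responsive genes Cirbp and Rbm3 with heat shock genes, so its counts have no single direction. The heat shock gene Hspa1a had 2 Ctrl and 51 cKO UMIs, a 29.7-fold difference (7.82 to 252), and Hsp90aa1 was at 17.5 and 39.2 CPM, a log2 ratio of 1.16 (0.86 to 1.47). The other 3 ran from -0.31 to 0.54, and without Malat1 and mitochondrial UMIs in the total 3 of the 5 were past the fold higher. Outside the fibers 2 of the 6 reached 50 UMIs, and both were past the fold higher (1.22 and 1.29), beside 5.77% of all genes. The part of temperature in the values of the members was not tested.

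**Figure D5:**
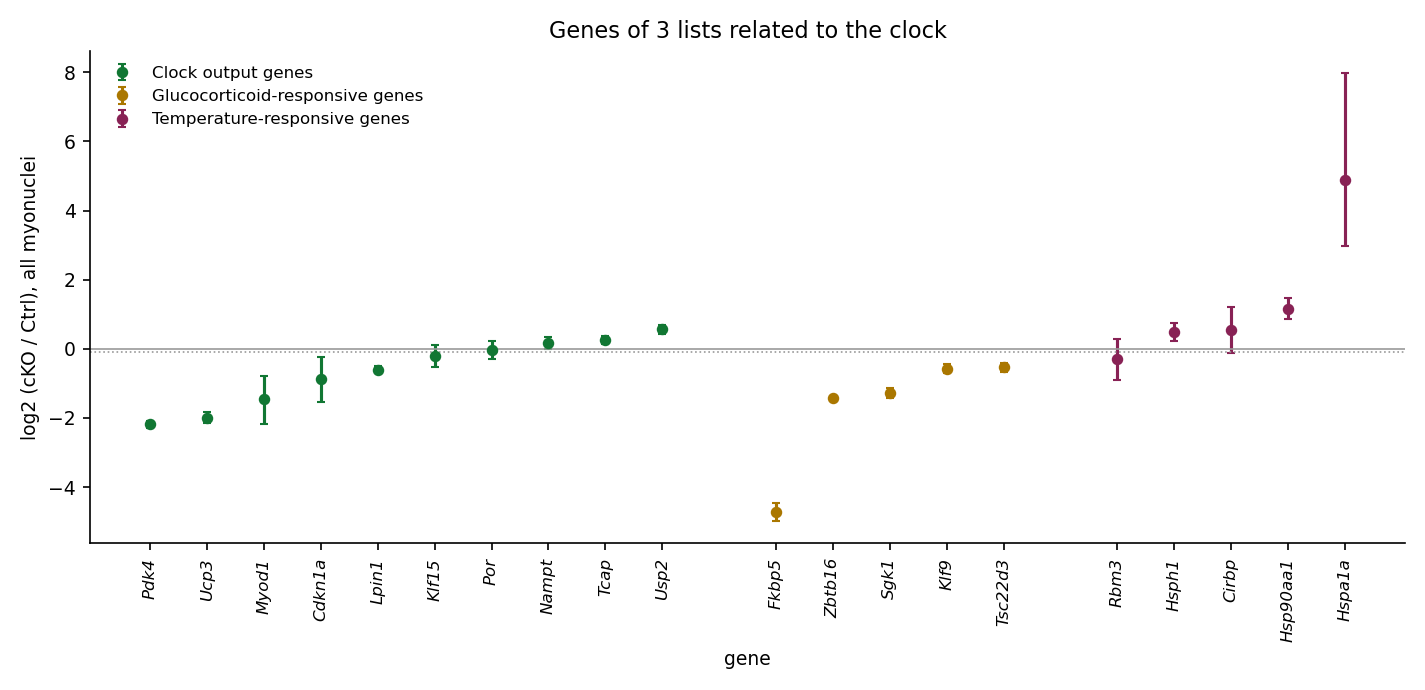
log2 ratio of cKO over Ctrl CPM in all myonuclei for the genes with at least 50 UMIs in 3 lists (clock outputs, glucocorticoid-responsive and temperature-responsive genes), ordered within each list. Bars are exact conditional 95% intervals, and the dotted line is the median of all genes (-0.08). The 5 glucocorticoid-responsive genes all lie below 0, from -4.72 (Fkbp5) to -0.53.

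The genes whose level across 6 classes in the 2 libraries, 12 points in all, was most like that of Dbp among 6298 genes were Stip1 (Pearson r = 0.91), Adhfe1 (0.86), Ky (0.86), Lsmem1 (0.83) and Ube2b (0.83). Their log2 ratios in all myonuclei ran from 0.74 (Ube2b) to 1.62 (Lsmem1). For Arntl they were Pnpla3 (0.88), Bmp8a (0.88), Aox1 (0.85), Itsn1 (0.85) and Pnpla8 (0.83), with log2 ratios from -4.08 (Bmp8a) to -0.39 (Itsn1). Among the members across the same points, Dbp had r = 0.77 with Tef, 0.62 with Nr1d2, 0.31 with Nr1d1 and -0.70 with Arntl, and it ran against the Per genes, at -0.53 (Per1), -0.73 (Per2) and -0.38 (Per3). Arntl had 0.77 with Clock, 0.36 with Npas2, 0.46 with Per2, -0.47 with Tef and -0.49 with both Nr1d1 and Nr1d2. Dbp itself had 15 Ctrl and 89 cKO UMIs in all nuclei, under the 200 asked of the other genes, and 0 to 7 at most points, so its ranking rests on few molecules. The points share 2 libraries, so a difference between libraries enters each correlation, and the values are a description with no test.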

How the data were processed

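Nuclei of 3 pooled GP muscles per genotype were stained with DAPI, sorted by FACS and run as 1 droplet library each. The authors aligned reads to mm10 with Cell Ranger 3.1.0 and deposited filtered UMI counts per gene and barcode, with no normalization. Whether intron reads were counted is not given in the sources used here. Members and gene lists were chosen with earlier results of these data known.

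Barcodes with at least 100 genes, at least 500 UMIs and at most 10% mitochondrial UMIs were kept (3833 Ctrl, 3908 cKO). Scrublet (scanpy 1.11.5) called 0 doublets in each library, so the 8% of barcodes with the highest doublet score were removed instead (307 and 313). Whether these scores mark doublets was not tested. Nuclei were clustered with Seurat 5.3.0 and sctransform 0.4.2 in R 4.3.3 (25 components, resolution 0.3, seed 1) on 2984 of 3000 features, without the listed clock genes. A myonucleus was given a fiber class when 1 of the 4 myosin genes held at least 60% of at least 3 myosin UMIs. Clusters were named from marker lists.

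Counts were summed per library and class and scaled to CPM with Python 3.11.15, numpy 2.4.6, scipy 1.17.1 and pandas 2.3.3. Levels have exact Poisson intervals, ratios exact conditional binomial intervals, and shares of nuclei Clopper-Pearson intervals, all at 95%. UMIs limit these intervals to counting error, and with 1 library per group no test was made. Genes needed at least 50 UMIs over both libraries to be counted past 1.5-fold. All 10 members were described. From the lists, genes past the fold with an interval that leaves out 0 were named, except 1 that is not reported here, and for Dbp and Arntl the 5 genes with at least 200 UMIs and the highest correlation of log2(CPM + 5). The log2 ratios and their intervals were tested on simulated Poisson counts, the model that the intervals assume, so this checks the code only. Alternatives covered filters, doublets, scaling, classes, the count minimum and fold, the genes of each side, and the fiber RNA counted outside the fibers.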

Additional observations from a re-analysis of the deposited data

How the results depend on the processing

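On the log2 scale, the phase ratio of myonuclei was -0.63 in Ctrl and 0.15 in cKO, and outside the fibers -1.21 and -0.82. The difference between libraries was above 0 in all myonuclei under every alternative run (0.59 to 3.40), as in Myh4-dominant (0.89 to 1.13), Myh2-dominant (0.09 to 0.91), Myh7-dominant (0.21 to 0.81) and undetermined nuclei (0.56 to 0.75). Outside the fibers it ran from -0.0045 to 0.67. Over all nuclei in place of myonuclei, the Ctrl value was -0.70, and with at most 5% mitochondrial UMIs the cKO value outside was -1.20. Thinning to 500 UMIs before assignment gave a Myh1-dominant difference of 1.13. The cause of these 3 shifts was not tested.

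Dbp over Arntl alone gave -7.30 in Ctrl and -3.89 in cKO myonuclei, a sign change for cKO, with a difference of 3.40, and -4.79 in cKO outside. Without Clock the values were -0.064, 0.86 and 0.92, and outside -0.72 and -0.32. Without the Per genes, an alternative chosen after seeing the data, they were -0.82 and 0.034, and outside -1.63 and -0.96. A mean of log2 CPM over members gave -2.90 and -2.31, a sign change for cKO, with a difference of 0.59. Outside the fibers that mean could not be computed because of genes with 0 UMIs. With the share of fiber RNA taken off, the values outside were -1.66 and -1.67 and their difference, -0.0045, changed sign. These changes follow from the genes or RNA each alternative leaves out or weights.

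Past the fold, 689 genes were higher and 971 lower in cKO myonuclei. The counts were 1061 and 1558 with a minimum of 20 UMIs, 352 and 448 with 200 UMIs, 2221 and 2972 with 1 UMI in each library, and 295 and 309 past 2-fold. Scaling without Malat1 and mitochondrial UMIs moved the median log2 ratio of all genes by 0.097, after which 880 genes were higher and 744 lower past the fold and the intervals of Clock, Npas2 and Per2 in all myonuclei held 0.

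No paired analysis was possible because each group has 1 library and no result comes from a test. For the same reason, leaving out a replicate was not run. Depth limits the Myh7-dominant class (19 Ctrl nuclei) and the sparse Dbp and Per3 counts.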
